A study of Mus musculus with 6 samples.

Results

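Rab11b, Rab11a and Rab25 encode the small GTPases of the RAB11 family, which mark the recycling endosome. The members described here are these 3 genes, the genes of the 5 RAB11 family interacting proteins (Rab11fip1 to Rab11fip5) and Myo5b, a motor that carries RAB11 vesicles. The family was chosen by the measured CPM of Rab11b, which was far lower in ovaries of the DEHP lineage, and its relatives were added by name. The question was whether any relative was higher where Rab11b was lower. All 9 of the 9 genes had values, of 16454 genes in the deposited table.

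The samples were whole ovaries of CD1 mice, an outbred stock, at postnatal day 21 and in generation 3 after the dosed dams. The dams of the founding generation received di(2-ethylhexyl) phthalate (DEHP, a plasticizer) at 20 µg/kg/day or vehicle, which the series describes as corn oil stripped of tocopherol, and the ovaries came from animals that were not dosed themselves. The control lineage and the DEHP lineage had 3 ovaries each, sequenced separately. The labels do not say how many founding dams or litters these ovaries stand for, so p-values measure only the spread between these ovaries.

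RAB11 proteins switch between a GTP-bound form, which recruits effectors to the membrane, and a GDP-bound form. Through the effectors, recycling endosomes return receptors, integrins and other membrane proteins to the cell surface and deliver membrane to the cleavage furrow of dividing cells. RAB11A and RAB11B are closely related proteins found in most tissues, and RAB25 is mainly a protein of epithelia.

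Values were CPM (read counts scaled to library size) on a log2 scale, from which the authors had removed a surrogate variable, an estimated nuisance direction across samples. The deviations from the lineage means filled 3 of the 4 possible directions, and the test therefore used 3 residual degrees of freedom. Summed CPM lay between 979868 and 1026735 per ovary, and library depth is unknown. DEHP-lineage ovaries 1 and 3 had a correlation across genes of 0.998, against 0.978 to 0.989 for the other pairs. The direction that is missing from the values contrasts the same 2 ovaries, with weights of -0.60 and 0.751. Markers of the ovary were present in every library: 8 oocyte genes summed to 798 to 1120 CPM and 5 granulosa cell genes to 4500 to 6120 CPM. In the whole table limma called 7 genes (0.0425%) at an adjusted p under 0.05, 4 of them higher (0.0243%) and 3 lower (0.0182%). Rab11b was among the genes fitted, but no test of it is reported, since its difference chose the family. The lineages did not overlap in 3776 genes (22.9%), 1776 of them higher (10.8%) and 2000 lower (12.2%).

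Before values are set side by side, the sequences show which family members reads can separate. The coding sequence of Rab11b (chromosome 17, 33742484 to 33760486, GRCm38.p6) has 654 bases, and Rab11a (chromosome 9, 64715300 to 64737756) matched it at 491 of 654 aligned positions, or 75.1%. Rab25 (chromosome 3, 88542029 to 88548279) matched it at 66.1% of positions. The pair below is the stretch of 101 coding bases, the number of sequencing cycles, in which Rab11b and Rab11a are most alike, at coding positions 271 to 371 counted from the start codon of each gene. Capitals mark the 16 bases that differ.
Rab11b: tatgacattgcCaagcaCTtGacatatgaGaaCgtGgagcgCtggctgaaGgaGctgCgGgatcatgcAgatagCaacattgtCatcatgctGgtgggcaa
Rab11a: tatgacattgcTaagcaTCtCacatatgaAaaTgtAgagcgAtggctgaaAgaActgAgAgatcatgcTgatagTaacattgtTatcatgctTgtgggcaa
Even in the most similar stretch, then, a read of full length from one gene differed from the other at 16 bases. No 101-base word of the Rab11b transcript occurred in a transcript of Rab11a or Rab25.

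The processed pseudogene Rab11b-ps2 (chromosome 19, 7397442 to 7399173) is a far closer copy, at 653 of 654 coding positions. The next pair shows the 101 coding bases at positions 102 to 202 that surround the single difference, in capitals.
Rab11b: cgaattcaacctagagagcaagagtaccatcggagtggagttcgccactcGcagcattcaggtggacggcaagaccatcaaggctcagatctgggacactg
Rab11b-ps2: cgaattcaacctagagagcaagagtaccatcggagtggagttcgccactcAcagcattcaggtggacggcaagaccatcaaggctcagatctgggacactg
Of the 554 words of 101 bases in the coding sequence of Rab11b, 453 also occurred in Rab11b-ps2. Over the whole Rab11b transcript of 6109 bases, most of it untranslated, 7.54% of such words occurred in another annotated gene, and that gene was Rab11b-ps2. By these words, Rab11b and its pseudogene can be told apart mainly in untranslated sequence. The pseudogene entry searched has 654 bases, fewer than the span given above, and the rest of that span was not searched. No source used here says how reads matching both were counted.

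Rab11b was at 10.5, 12.9 and 10.8 CPM in the 3 control-lineage ovaries. In the DEHP-lineage ovaries it was at 0.688, 0.434 and 0.610 CPM. Every control ovary was above every DEHP-lineage ovary, and the lowest control value was 15.3 times the highest DEHP-lineage value. The means were 11.4 ± 1.33 and 0.577 ± 0.13 CPM (SD, n = 3 each), and the difference of mean log2 values was -4.33. This was the second-largest fall in the table (rank 2 of 16454). It is the measurement that chose the family and is given as a description, with no test of it reported. In the control lineage 39.4% of genes had a lower mean level than Rab11b, and in the DEHP lineage 3.51% did.

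Rab11b-ps2 was at 0.342, 0.882 and 0.469 CPM in the control ovaries and at 0.720, 0.478 and 0.570 CPM in the DEHP-lineage ovaries. The lineages overlapped, and in both the pseudogene was under 1 CPM. Parent and pseudogene together were at 10.9, 13.8 and 11.3 CPM against 1.41, 0.912 and 1.18 CPM, and the lineages did not overlap in this sum either.

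**Figure D1:**
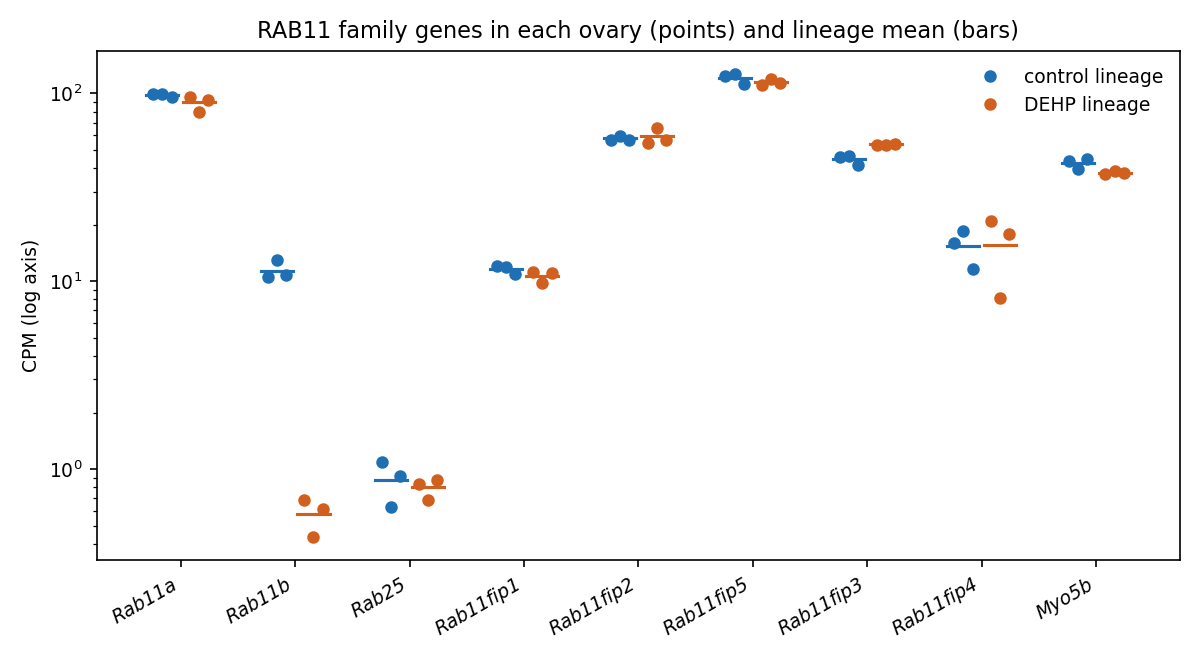
CPM on a log axis of the 9 RAB11 family genes in each of 6 ovaries (points, blue for the control lineage and orange for the DEHP lineage), with the lineage mean as a short bar. Rab11b falls from 11.4 to 0.577 CPM in the means, while the points of the other 8 genes lie within a far smaller span.

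Among the other 8 members, 0 passed the adjusted p by limma, where the background was 0.0425% of all genes. With 4 residual degrees of freedom 0 of the 8 passed as well (0.122% of all genes). Rab11fip3 alone had an unadjusted p under 0.05 (8.78% of all genes). None of the 8 passed in the authors' deposited table (0 of 8, against 0.0182% of all genes), with adjusted p values of 0.731 to 0.991. The lineages did not overlap in 3 of the 8, with Rab11fip3 higher and Rab11a and Myo5b lower in the DEHP lineage, against 22.9% of all genes. The median log2 difference of the 8 was -0.09, beside -0.01 over all genes.

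Rab11a encodes the GTPase nearest to RAB11B. It was at 99.5, 99.3 and 96.2 CPM in the control ovaries and at 95.8, 79.9 and 92.8 CPM in the DEHP-lineage ovaries. All 3 DEHP-lineage ovaries were below all 3 control ovaries, by a narrow margin in ovary 1 and most clearly in ovary 2. The log2 difference was -0.14 (SE 0.0882, 95% interval -0.35 to 0.07, adjusted p 0.688 by limma). Without DEHP-lineage ovary 2 it was -0.06 (interval -0.27 to 0.15, adjusted p 0.966 by limma). Rab25, the epithelial member, stayed near the bottom of the measured range, at 1.09, 0.626 and 0.915 CPM against 0.837, 0.682 and 0.877 CPM. Its log2 difference of -0.11 had a wide interval, -0.93 to 0.71 (adjusted p 0.94 by limma).

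To compare the GTPases with each other, CPM was divided by the length of the transcript that GENCODE pairs with a curated RefSeq entry, 6109 bases for Rab11b, 2336 for Rab11a and 1081 for Rab25. On this scale Rab11a stood at 42.1 ± 0.797 CPM per kb in control ovaries, Rab11b at 1.87 ± 0.217 and Rab25 at 0.813 ± 0.218 (SD, n = 3 each). Rab11b thus made up 3.80%, 4.68% and 4.03% of the summed GTPase level in the control ovaries and 0.269%, 0.203% and 0.246% in the DEHP-lineage ovaries. The sum of the 3 genes was 45.3, 45.2 and 43.8 CPM per kb in the control ovaries. In the DEHP-lineage ovaries it was 41.9, 34.9 and 40.6 CPM per kb, each below the lowest control value. The sum fell by 5.63 CPM per kb in the means, a change of -12.6%. Rab11b contributed -1.77 CPM per kb to it, Rab11a -3.79 and Rab25 -0.0738. Without DEHP-lineage ovary 2 the sum differed by -3.51 CPM per kb, of which Rab11b gave -1.76 and Rab11a -1.73, and the log2 ratio of the sums moved from -0.19 to -0.12.

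Much of the annotated Rab11b transcript is untranslated, so its share depends on the length used. If reads of untranslated sequence were counted, division by coding length overstates Rab11b beside Rab11a. Per kb of coding sequence, which is 654 bases for Rab11b and 648 for Rab11a, Rab11b made up 10.2% ± 1.03 of the sum in control ovaries and 0.624% ± 0.0863 in DEHP-lineage ovaries (SD, n = 3 each). The sum was 171 ± 3.89 and 140 ± 13.4 CPM per kb on that scale, a log2 ratio of -0.28 in place of -0.19. By either length the sum was lower in each DEHP-lineage ovary than in each control ovary. The sum includes Rab11b, whose low values chose the family, so this separation is not a result about the relatives. By coding length the sum differed by -30.3 CPM per kb in the means, of which Rab11b gave -16.6 and Rab11a -13.6.

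**Figure D2:**
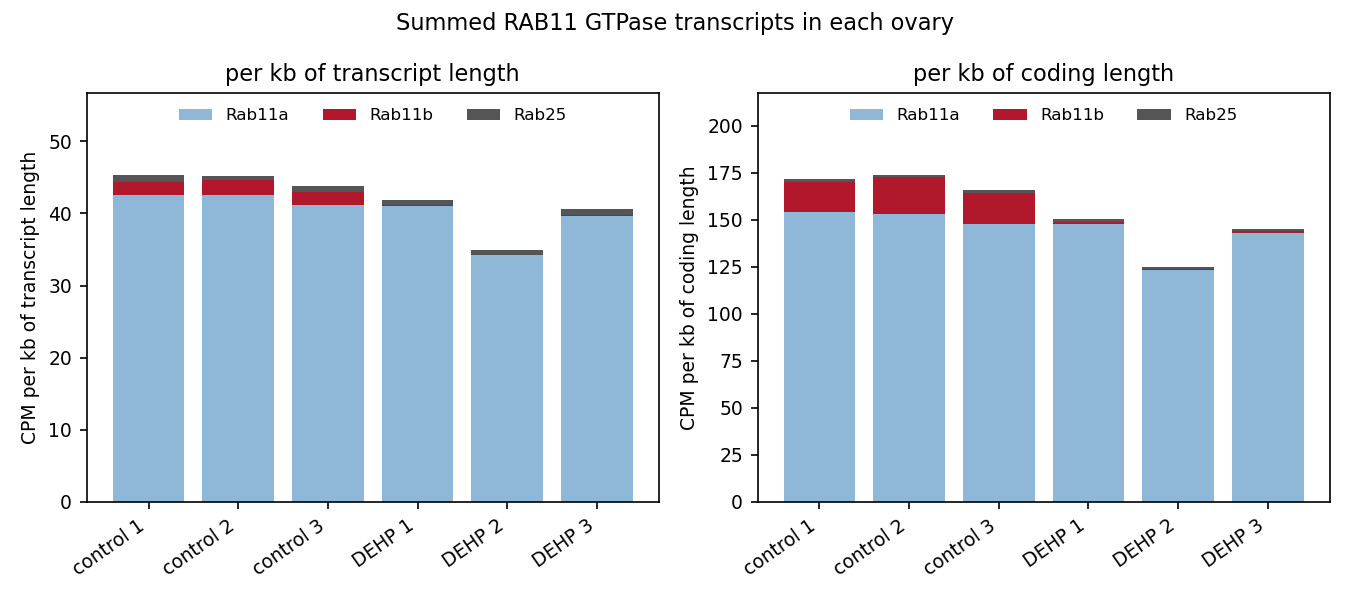
Stacked levels of Rab11a, Rab11b and Rab25 in each ovary, in CPM per kb of transcript length (left) and of coding length (right). The red Rab11b segment is far larger in the control ovaries, and the Rab11a segment is shorter in each DEHP-lineage ovary than in each control ovary.

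A rise of Rab11a that equalled the difference in Rab11b would have been 0.06 on the log2 scale by transcript length and 0.15 by coding length. The observed difference was -0.14, and its 95% interval ended at 0.07. The rise needed by coding length was above that interval, while the smaller rise needed by transcript length lay inside it, just under its upper end. By the union of annotated exons it was 0.08, just above the interval, and with no length it was 0.15. The comparison thus depends on the length used. Without DEHP-lineage ovary 2 the interval of Rab11a ended at 0.15, level with the rise needed by coding length after rounding. For Rab25 the rise needed was 1.67 by transcript length and 3.71 by coding length, both above the upper end of its interval at 0.71. Rab11a was lower in each DEHP-lineage ovary than in each control ovary, but only narrowly, at 95.8 against 96.2 CPM for the closest ovaries. Lineages that did not overlap were found in 22.9% of all genes.

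The class I interacting proteins, Rab11fip1, Rab11fip2 and Rab11fip5, carry a lipid-binding C2 domain and act in the return of cargo to the surface. Rab11fip5 had the highest level of the 5 on both the CPM and the length-corrected scale, at 124, 127 and 112 CPM in the control ovaries and 111, 119 and 114 CPM in the DEHP-lineage ovaries. Rab11fip2, which binds MYO5B as well as RAB11, was at 56.7, 59.6 and 56.8 CPM against 54.7, 65.8 and 56.5 CPM. Rab11fip1 was at 12.1, 11.9 and 10.9 CPM against 11.2, 9.73 and 11 CPM. The lineages overlapped in all 3 genes. Their log2 differences were -0.08 (interval -0.26 to 0.10), 0.03 (-0.19 to 0.25) and -0.13 (-0.45 to 0.19), in the same order. Summed per kb of transcript, class I stood at 32 ± 1.55 and 31 ± 1.67 CPM per kb (SD, n = 3 each).

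The class II proteins, Rab11fip3 and Rab11fip4, bind ARF GTPases besides RAB11, and Rab11fip3 is known for bringing recycling endosomes to the cleavage furrow. Rab11fip3 (chromosome 17, 25989036 to 26070077) was at 45.6, 46.4 and 41.8 CPM in the control ovaries and at 53.4, 53.2 and 53.9 CPM in the DEHP-lineage ovaries. The 3 DEHP-lineage ovaries lay together above all control ovaries. The log2 difference of 0.26 (SE 0.0791, interval 0.08 to 0.45) had an unadjusted p of 0.0117 and an adjusted p of 0.488 by limma, and did not pass. DEHP-lineage ovaries 1 and 3, which correlated most closely of all pairs, give 2 of those 3 values. On the length-corrected scale the mean moved from 8.29 ± 0.462 to 9.94 ± 0.0705 CPM per kb.

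Rab11fip4 was the most variable member above 1 CPM, at 16, 18.5 and 11.6 CPM against 20.9, 8.19 and 17.8 CPM. DEHP-lineage ovaries 1 and 3 lay near or above the highest control ovary and ovary 2 lay below all others. The log2 difference was -0.06 with an interval of -0.90 to 0.78. Without DEHP-lineage ovary 2 it was 0.35 (adjusted p 0.812 by limma). The antisense gene Rab11fip4os1 was at 1.05 to 2.00 CPM in control ovaries and 1.29 to 2.14 CPM in DEHP-lineage ovaries. The labels do not say whether counting used strand, so reads of these 2 genes may not be separate. Summed over both classes, the 5 interacting proteins stood at 42.4 ± 2.49 and 43.2 ± 0.709 CPM per kb (SD, n = 3 each).

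DEHP-lineage ovary 2 also had the lowest Rab11a and Rab11fip1 and the highest Rab11fip2 of the 6 ovaries. It had the highest sum of 5 adipocyte markers as well, 259 CPM, against 33.2 and 62.8 CPM in the other DEHP-lineage ovaries and 41.6 to 148 CPM in the control lineage. Single markers differed: Adipoq and Cidec were highest in this ovary, at 42.9 and 27.7 CPM, while Plin1 and Lep were not. Plin1 and Lep were at 25.5 and 2.49 CPM there, against 34.4 and 5.94 CPM in control ovary 1. The part of adipocyte content in the RAB11 family values was not tested.

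Myo5b, the actin-based motor that binds RAB11, was at 43.9, 39.6 and 44.6 CPM in the control ovaries and at 37.1, 38.8 and 37.8 CPM in the DEHP-lineage ovaries. The lineages did not overlap, by a margin of less than 1 CPM between control ovary 2 and DEHP-lineage ovary 2. The log2 difference was -0.17 (SE 0.0856, interval -0.37 to 0.03, adjusted p 0.621 by limma). Myo5b, Rab25 and Rab11fip1 are prominent in epithelia, and in whole ovaries fewer epithelial cells and less RNA per cell cannot be told apart. Of 14 epithelial markers 13 had values, and their sum was 121 to 133 CPM in control ovaries and 126 to 131 CPM in DEHP-lineage ovaries. Their members did not move together, with Epcam at a log2 difference of 0.58 and Esrp1 at -0.32. By limma 0 of the 13 passed (0.0425% of all genes did), and 2 had an unadjusted p under 0.05 (8.78% of all genes).

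**Figure D3:**
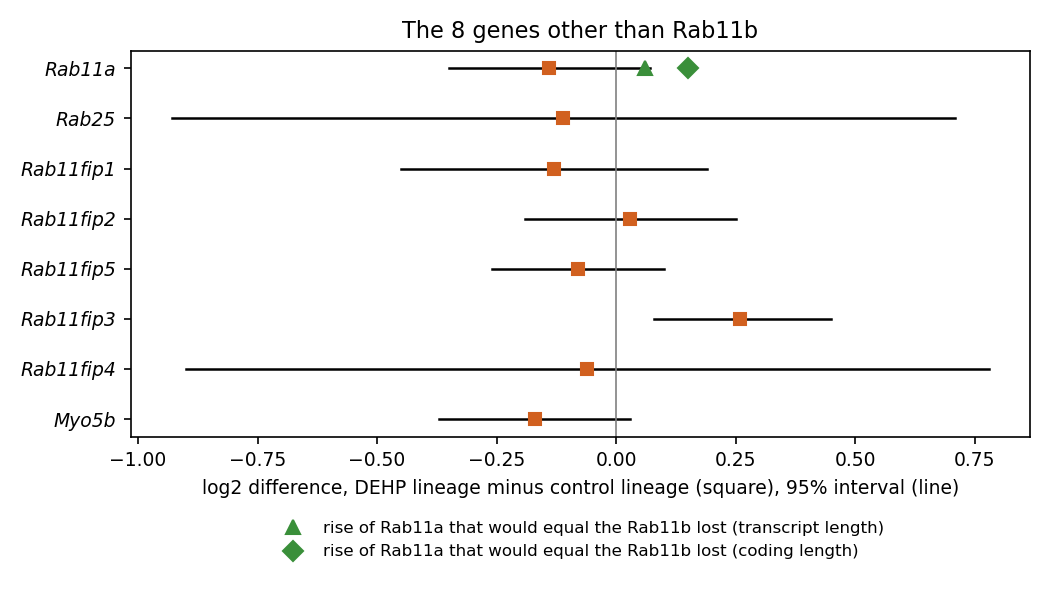
Log2 difference (orange squares, DEHP lineage minus control lineage) and 95% interval (lines) of the 8 members other than Rab11b, with the rise of Rab11a that would equal the Rab11b difference in green. The interval of Rab11a ends at 0.07, below the 0.15 needed by coding length and above the 0.06 needed by transcript length. Rab11fip3 alone has an interval that does not reach 0.

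Around the family, lists of other recycling endosome genes were read from the same fit. None of their members passed by limma (0 of 56 entries in 6 lists, against 0.0425% of all genes). Ehd4 alone had an unadjusted p under 0.05, 1 of 56 entries against 8.78% of all genes. The exchange factors that load RAB11 with GTP and the proteins that stimulate its GTP hydrolysis, 6 genes, had a median log2 difference of 0.03 and a range of -0.10 to 0.18. Sh3bp5, an exchange factor for RAB11, was at 66 and 74.3 CPM in the lineage means (log2 difference 0.18, adjusted p 0.751 by limma). The TRAPPII subunits Trappc9 and Trappc10 had log2 differences of -0.10 and 0.05.

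Other effectors, partners and motors, 8 genes, had a median of 0.00. Myo5c, a relative of Myo5b, was at -0.17, and Rab3ip, the exchange factor that links RAB11 to RAB8, was at 0.11. The 9 exocyst genes, which encode the complex that tethers vesicles to the plasma membrane, had a median of 0.01, and Exoc6, whose protein is the subunit that binds RAB11, was at -0.27 (adjusted p 0.632 by limma). The 14 other endosomal Rabs had a median of -0.04 with 12 of 14 negative, in a narrow range from -0.13 for Rab8b to 0.05 for Rab5b. Over all 16454 genes the median was -0.01 and 8734 were negative.

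Of 13 genes of the recycling machinery 10 had values, with a median of 0.02. Ehd4 and Ehd3, which encode membrane-shaping ATPases of recycling endosomes, were at -0.28 (unadjusted p 0.0316, adjusted p 0.534 by limma) and -0.25. Of the recycled cargo 9 of 10 genes had values, with a median of -0.08. The integrin genes Itga5 and Itgb1 were both at -0.16, and the receptor gene Lrp1 was at 0.21. The lineages did not overlap in these 2 integrin genes of the 9, both lower, where 22.9% of all genes did not overlap and 12.2% were lower. In the other lists they did not overlap in Rab3ip alone, higher, 1 of 8 genes, and Ehd3 alone, lower, 1 of 10. In the lists of exchange factors, exocyst and endosomal Rabs they overlapped in every gene. The differences of these lists were of the size seen in the 8 relatives and more than 10 times smaller on the log2 scale than that of Rab11b.

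**Figure D4:**
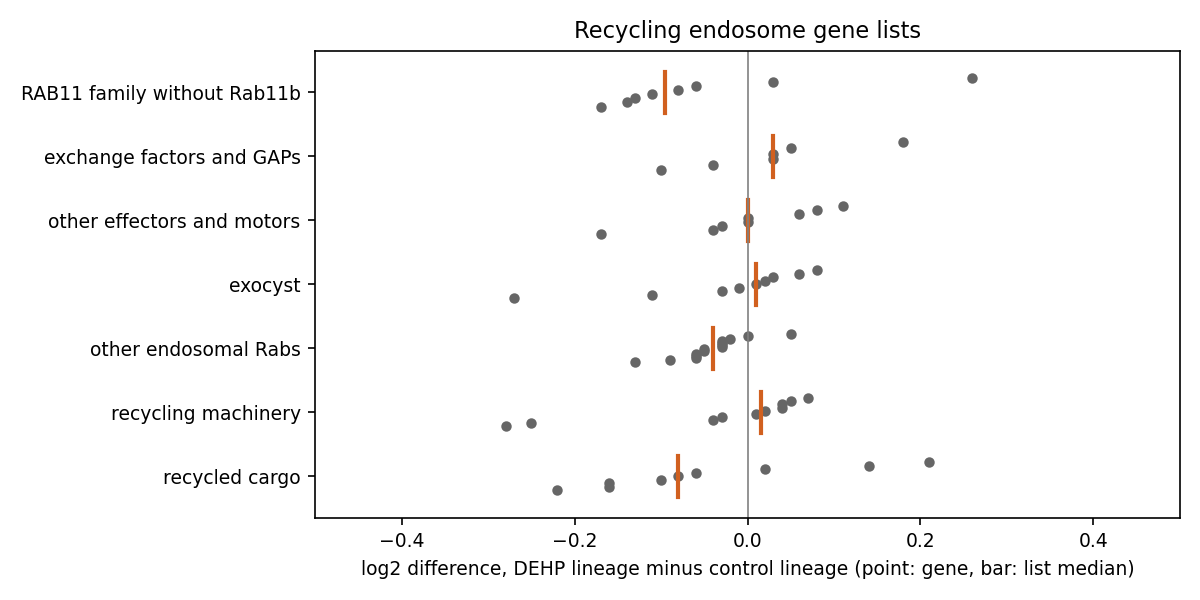
Log2 difference of each gene (points) and list median (orange bars) for the 8 RAB11 family members other than Rab11b and for 6 lists of recycling endosome genes. All points lie between -0.28 and 0.26, whereas Rab11b, at -4.33, is outside the axis.

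The genes beside Rab11b on chromosome 17 were read as well. The 5 nearest measured genes before it, that is at lower coordinates, in the order of increasing distance, were Hnrnpm, Pram1, Zfp414, Myo1f and Adamts10. Hnrnpm, an RNA-binding protein gene whose end lies 57.0 kb away, was at 449 and 442 CPM in the lineage means, and Adamts10, a matrix protease gene, at 271 and 274 CPM. Pram1 was higher in all 3 DEHP-lineage ovaries, from 1.41 to 3.19 CPM in the means (log2 difference 1.18, adjusted p 0.365 by limma).

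The 5 nearest measured genes after it were Rps28, H2-K1, Brd2, Tnxb and Ehmt2, and the last of them begins 1140 kb away. The first 1 Mb after Rab11b enters the major histocompatibility complex, which differs strongly in sequence between mouse strains. Of 54 annotated protein-coding genes in that stretch, olfactory receptors set aside, 4 (7.41%) had a value in the table used here, against 19 of 23 (82.6%) in the 1 Mb before Rab11b and 69.2% in the whole genome. These 4 were Rps28, H2-K1, Brd2 and Tnxb, with Ehmt2 just beyond. Brd2 and Ehmt2, which encode chromatin proteins of most cell types, were at 0.692 and 0.704 CPM in the control lineage, and H2-K1 was far higher at 59.3 CPM. In the DEHP lineage Brd2 was at 1.59 CPM (log2 difference 1.28, adjusted p 0.491 by limma) and Ehmt2 at 0.664 CPM. Tnxb went from 2.78 to 4.52 CPM in the means (0.73, adjusted p 0.511 by limma). Brd2 and Tnxb were higher in the DEHP lineage without overlap, against 10.8% of all genes.

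H2-K1, a class I histocompatibility gene, was at 12.8, 36.1 and 129 CPM in the control ovaries and at 4.97, 3.73 and 3.04 CPM in the DEHP-lineage ovaries. The 3 control values lay far apart, and its log2 difference of -3.35 had an adjusted p of 0.376 by limma. Rps28, a ribosomal protein gene, was at 29.7 CPM in control ovary 1 and at 1.15 to 4.44 CPM in the other 5. Tubb5, a tubulin gene 2.07 Mb from Rab11b, was at 61.2, 51.9 and 74.8 CPM in the control ovaries and at 57.7, 0.167 and 17.6 CPM in the DEHP-lineage ovaries. These 3 genes thus differed manyfold between ovaries of a lineage.

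Over the 20 nearest measured genes after Rab11b, 10 (50%) had a log2 difference of at least 1 in size between the lineages, against 2 (10%) of the 20 before it and 2.07% of all genes. Within a lineage, 10 (50%) of the 20 after it spanned at least 2 on the log2 scale, against 1 (5%) before it and 2.45% of all genes. The median of their control means was 4.10 CPM after and 20.8 CPM before. By limma 0 of these genes passed the adjusted p, against 0.0425% of all genes. An unadjusted p under 0.05 was found for 3 of the 20 before and 4 of the 20 after Rab11b, against 8.78% of all genes. This comparison, like the choice of Tubb5, was added after the values had been seen. The 20 genes after Rab11b reach 2.22 Mb from it, and the 20 before reach 0.995 Mb. Most genes in both counts of 10 lie from Ddr1, at 1.92 Mb, to Gnl1, at 2.22 Mb. In all measured genes from Ddr1 to Gnl1, DEHP-lineage ovary 2 had the lowest value of the 6 ovaries. Gnl1 was at 12, 0.128 and 5.08 CPM in the DEHP-lineage ovaries against 8.02 to 11.5 CPM in control ovaries. Both counts thus rest largely on 1 ovary. Rab11b is the first measured gene at the edge of the stretch that these 20 genes cover. Within each lineage it spanned less than 2 on the log2 scale, as did the genes of the 20 outside the 10 counted above. The part of this stretch in the difference in Rab11b was not tested, since reads and sequence variants were not analysed here.

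**Figure D5:**
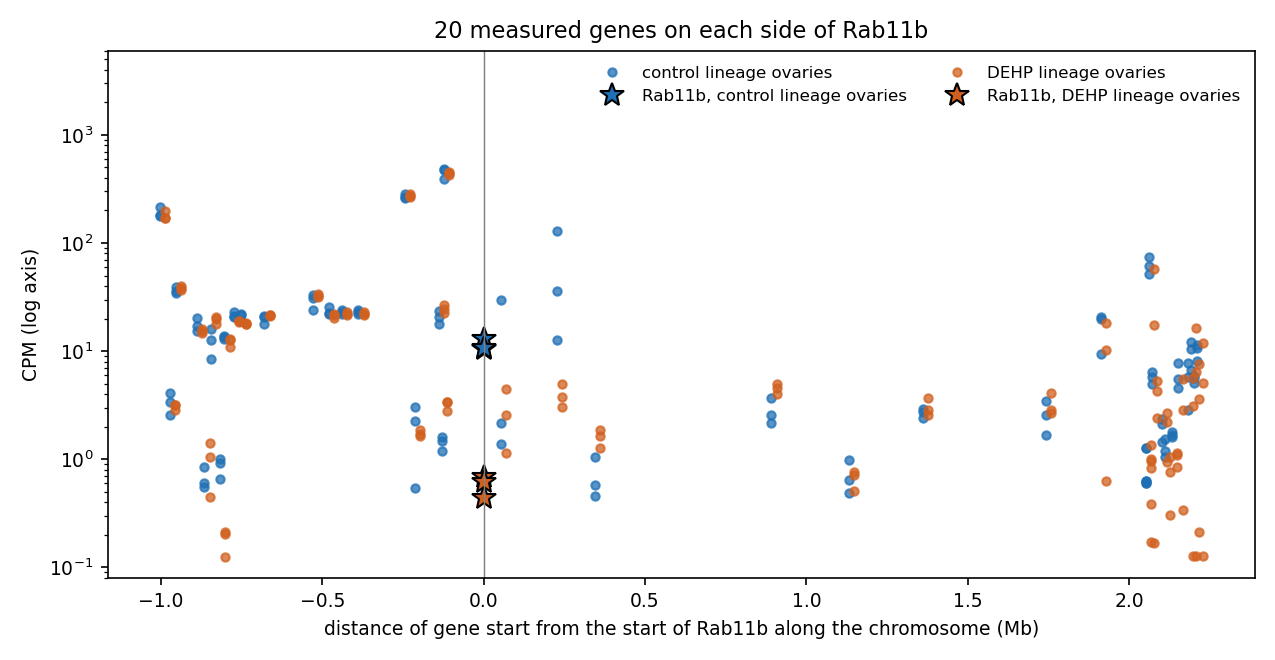
CPM on a log axis of the 20 nearest measured genes on each side of Rab11b, by the distance in Mb of their lowest coordinate from the start site of Rab11b (blue, control ovaries, and orange, DEHP-lineage ovaries, with Rab11b as stars). Genes before Rab11b are dense with close points, while those after it are sparse, mostly under 10 CPM and in many cases spread widely between ovaries.

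Of the 53 measured Rab GTPase genes other than Rab11b, 0 passed by limma (0.0425% of all genes did) and 0 had an unadjusted p under 0.05 (8.78% of all genes). With Rab11b included, the median of the 54 was -0.03, with 16 positive and 38 negative, beside -0.01, 7720 positive and 8734 negative over all 16454 genes. The largest rise of a Rab gene was that of Rab37, at 0.84, which was below 1 CPM in both lineage means (0.554 and 0.936 CPM) and whose lineages overlapped. Summed, the 54 genes lay between 3090 and 3190 CPM in the control ovaries and between 2970 and 3090 CPM in the DEHP-lineage ovaries.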

How the data were processed

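RNA of 6 whole ovaries was sequenced for 101 cycles, per the labels' protocols. The submitters' processing notes name STAR 2.5.3a, featureCounts of Subread 1.5.2, edgeR 3.20.5 with R 3.4.3, Trimmomatic 0.36, FastQC 0.11.5 and the build GRCm38.p6, without settings. The authors deposited log2 CPM per ovary with a surrogate variable removed, as the deposited table's name says, and the log2 fold change for the contrast. The authors also deposited a p-value and an adjusted p for each gene. Removing a surrogate variable narrows the spread within a lineage.

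The deposited log2 CPM of all 16454 genes were fitted with limma 3.58.1 in R 4.3.3 (mean-variance trend, 3 residual degrees of freedom, two-sided, Benjamini-Hochberg adjustment over all genes, threshold 0.05), after tests on simulated data. CPM values are the deposited values taken out of the log. Rab11b was part of this fit, but no test of it is reported, because its difference chose the family. Members and lists were chosen with earlier results of these data known. Named were all members, Rab11b-ps2, up to 4 genes of smallest p per list, any called gene, 5 neighbours on each side, and the 5 most and 3 least alike genes. Gene positions came from RefSeq and coding sequences and lengths from GENCODE, both on GRCm38, aligned with Biopython 1.88. Alternatives were other normalizations, pseudocounts of 0.5 and 1 CPM, a filter, no trend, 4 degrees of freedom, a replicate block and leaving out each ovary.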

Additional observations from a re-analysis of the deposited data

How the results depend on the processing

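The 7 genes called by limma became 20 with 4 residual degrees of freedom, 3 with quantile normalization, 1 without the mean-variance trend and 3 by the authors' deposited adjusted p (added after seeing the data). With the replicate number as a block, a replicate block, 83 genes were called, 1 of them in the theca and interstitium list. The labels do not say what a replicate number shares. In the deposited values the deviations of same-numbered ovaries correlated at -0.33, -0.00 and -0.20, and 0 of 6 ovaries correlated best with its own number. A surrogate variable had been removed from these values, so they cannot show whether the ovaries were paired. Leaving out 1 ovary gave 3 (without control ovary 2) to 270 genes (without DEHP-lineage ovary 1). The other counts were 27 and 5 without control ovaries 1 and 3, and 43 and 183 without DEHP-lineage ovaries 2 and 3. The difference in Rab11b was -3.47 with a pseudocount of 0.5 CPM and -2.97 with 1 CPM. None of the 8 relatives was called under any alternative run. With 1 ovary left out, Rab11a ranged from -0.19 to -0.06, the log2 ratio of the summed GTPases from -0.25 to -0.12, Rab25 from -0.33 to 0.07, Rab11fip2 from -0.05 to 0.08 and Rab11fip4 from -0.32 to 0.35. Among list counts, the oviduct list ranged from 0 to 1, the theca and interstitium list from 0 to 1 and the adipocyte list from 0 to 3. Among neighbours, Adamts10 ranged from -0.00 to 0.05, Myo1f from -0.59 to 0.65, Hnrnpm from -0.11 to 0.04, Rps28 from -1.76 to 0.45 and Ehmt2 from -0.28 to 0.22. H2-K1 passed with the replicate block and without control ovary 1, DEHP-lineage ovary 1 or DEHP-lineage ovary 3. The causes were not tested. Depth is unknown, so the precision of Rab11b in the DEHP lineage, under 1 CPM, cannot be given.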

Other observations

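Outside the family, the higher Rab genes with the smallest p were Rab30 (log2 difference 0.29, from 9.79 to 12 CPM in the lineage means), Rab37 (0.84) and Rab33a (0.18). The lower ones, besides Rab11b, were Rab27a (-0.28) and Rab42 (-0.39). Rab30 is a Golgi Rab and Rab27a acts in secretion. By limma none of these 5 passed, with adjusted p values of 0.569 to 0.675. The lineages did not overlap in Rab30 and Rab33a, both higher, and in Rab27a and Rab42, both lower. Of all 54 Rab genes, with Rab11b included, 3 were higher and 9 lower without overlap. Over all genes these shares were 10.8% and 12.2%.

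The genes whose log2 CPM followed that of Rab11b most closely over the 6 ovaries were Rac1 (Pearson r 0.999), Gpatch11 (0.998), Rps3a1 (0.998), Ndufs4 (0.998) and Tsen34 (0.996), of 13062 genes with a mean log2 CPM of at least 1. An r over 0.9 was found for 453 of these 13062 genes. The lowest r values were those of Zfp990 (-0.997), Gm32443 (-0.997) and Dvl1 (-0.994). These 6 points fall into 2 lineages far apart in Rab11b, and r is a description with no test. In size the changes were far smaller, such as -0.09 for Rac1, a GTPase of the cytoskeleton. Rps3a1, a ribosomal protein gene, was at -0.74 (adjusted p 0.0451 by limma).

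In the 8 other marker lists 0 members passed by limma (0.0425% of all genes did), and 6 had an unadjusted p under 0.05 (8.78% of all genes). Median log2 differences were -0.23 for 8 oocyte genes, 0.16 for 5 granulosa genes, -0.40 for 5 theca and interstitium genes, 0.40 for 5 adipocyte genes, -0.15 for 4 blood endothelium genes, -0.04 for 4 macrophage genes, 0.00 for 5 surface epithelium genes and 0.70 for 4 oviduct genes. Several of these medians rest on single ovaries. The granulosa median was -0.14 without control ovary 1 and -0.04 without DEHP-lineage ovary 1. The adipocyte median was -0.57 without DEHP-lineage ovary 2, -0.32 without control ovary 3, 1.00 without control ovary 1 and 1.17 without DEHP-lineage ovary 1. The macrophage median was -0.55 without control ovary 2, and 0.31, 0.12 and 0.04 without control ovary 3, control ovary 1 and DEHP-lineage ovary 1. The oviduct median was 0.38 without DEHP-lineage ovary 2. The oocyte median was -0.38 without control ovary 2 and -0.14 without control ovary 1 or 3, and the endothelium median was -0.24 without DEHP-lineage ovary 2. With 1 ovary left out the surface epithelium median ranged from -0.08 to 0.16 and the theca median from -0.54 to -0.33. The oocyte growth factor genes Bmp15 and Gdf9 were at -0.35 and -0.31. Their part in the values of the RAB11 family was not tested.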
